A study of Homo sapiens with 9 samples.

Results

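The SR proteins with the TRA2 proteins, and the heterogeneous nuclear ribonucleoproteins (hnRNPs), were followed at the RNA level in A549 cells depleted of Cyclin K. Genes were taken by symbol: every feature named SRSF or HNRNP, plus TRA2A and TRA2B, with numbered pseudogenes left out. This gave 34 genes of 31080 features with a reference gene, namely 12 SR proteins (SRSF1 to SRSF12), 2 TRA2 proteins and 20 hnRNPs. HNRNPA0 and the HNRNPCL genes were not analysed here.

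SR proteins carry RNA recognition motifs and a domain rich in arginine and serine, and they typically bind exonic enhancers and favour inclusion of the exon. hnRNPs coat nascent transcripts and often act in the other direction, by blocking or looping out splice sites. Many genes of both families limit their own output through poison exons, whose inclusion sends the transcript to nonsense-mediated decay (NMD). Cyclin K is the partner of CDK12 and CDK13, kinases that phosphorylate the C-terminal domain of RNA polymerase II.

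RNA was sequenced from 9 libraries of A549, an established human lung cancer cell line with an epithelial origin. All cells were grown in the same serum-containing medium and transfected for 48 h, and no untransfected cells were included. The 3 groups were a control siRNA (siCtrl in the labels, called scrambled here), siCyclin K#1 and siCyclin K#2, with 3 libraries each that the series describes as independent samples of 1 cell line. Knockdown lowers the transcript without removing the gene, and each siRNA can act on other transcripts.

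Values are FPKM, fragments normalised to transcript length and library depth, so levels can be compared between genes per unit of length. Whole-read steps in low values gave 31336900 to 33773700 reads per library. The epithelial markers KRT8, KRT18 and CDH1 were present, EPCAM and KRT19 were near or under 0.3 FPKM, KRT7 had no feature, and the summed epithelial list was 132 to 152 FPKM with scrambled, 160 to 187 with siCyclin K#1 and 186 to 193 with siCyclin K#2. KRT8 was 49.7 to 65.4 FPKM with scrambled, 80.6 to 104.9 with siCyclin K#1 and 93.7 to 101.1 with siCyclin K#2. KRT18 was 80.8 to 85.0 FPKM with scrambled, lower with siCyclin K#1 (69.8 to 77.6) and higher with siCyclin K#2 (89.1 to 91.0). All 4 endothelial markers and PTPRC stayed under 0.1 FPKM in every library. The summed fibroblast list was 2.29 to 2.71 FPKM with scrambled, 15.5 to 17.4 with siCyclin K#1 and 3.55 to 3.74 with siCyclin K#2, which came from COL1A1 and LUM, while COL1A2 and DCN stayed under 0.1 FPKM. These genes moved with siCyclin K#1, and their part in the results for that siRNA was not tested.

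The targeted gene, CCNK, which encodes Cyclin K, stood at 6.90, 7.06 and 7.10 FPKM in the scrambled libraries. It was 0.891, 0.816 and 0.720 FPKM with siCyclin K#1, and 0.809, 0.920 and 0.802 FPKM with siCyclin K#2. The groups did not overlap, and 11.5% and 12.03% of the control mean was left. The log2 fold change over both siRNAs was -2.94 (SE 0.10, adjusted p = 1.74e-07, limma). The 2 siRNAs did not differ detectably in this knockdown (log2 difference -0.06, SE 0.10, adjusted p = 0.726).

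In control cells the hnRNPs made up most of the RNA of these genes. Their summed level was 1304 ± 13.1 FPKM (SD, n = 3) against 318 ± 9.77 FPKM for the SR and TRA2 genes. The 10 highest single levels all belonged to features of hnRNPs, led by HNRNPA2B1 at 154 ± 2.17 FPKM, HNRNPK at 148 ± 2.95 FPKM, HNRNPF at 148 ± 2.01 FPKM, HNRNPA1 at 144 ± 3.47 FPKM and HNRNPAB at 129 ± 3.67 FPKM. HNRNPH2, ranked 8 at 68.2 FPKM, shares its feature with RPL36A, so its own rank is not known. This feature, and that of HNRNPUL2 shared with BSCL2, are part of the hnRNP sum. HNRNPK and HNRNPF lay within their spread of each other, and the HNRNPA2B1 libraries were all above both. The highest SR genes were SRSF6 at 50.8 ± 8.17 FPKM, SRSF2 at 46.3 ± 1.503 FPKM and SRSF3 at 46.1 ± 0.627 FPKM. At the low end were SRSF4 at 6.99 ± 0.835 FPKM, HNRNPA1L2 at 1.80 ± 0.349 FPKM and SRSF12 at 0.1005 ± 0.0280 FPKM. All 34 genes passed the filter on low values and entered the test, SRSF12 only narrowly.

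**Figure D1:**
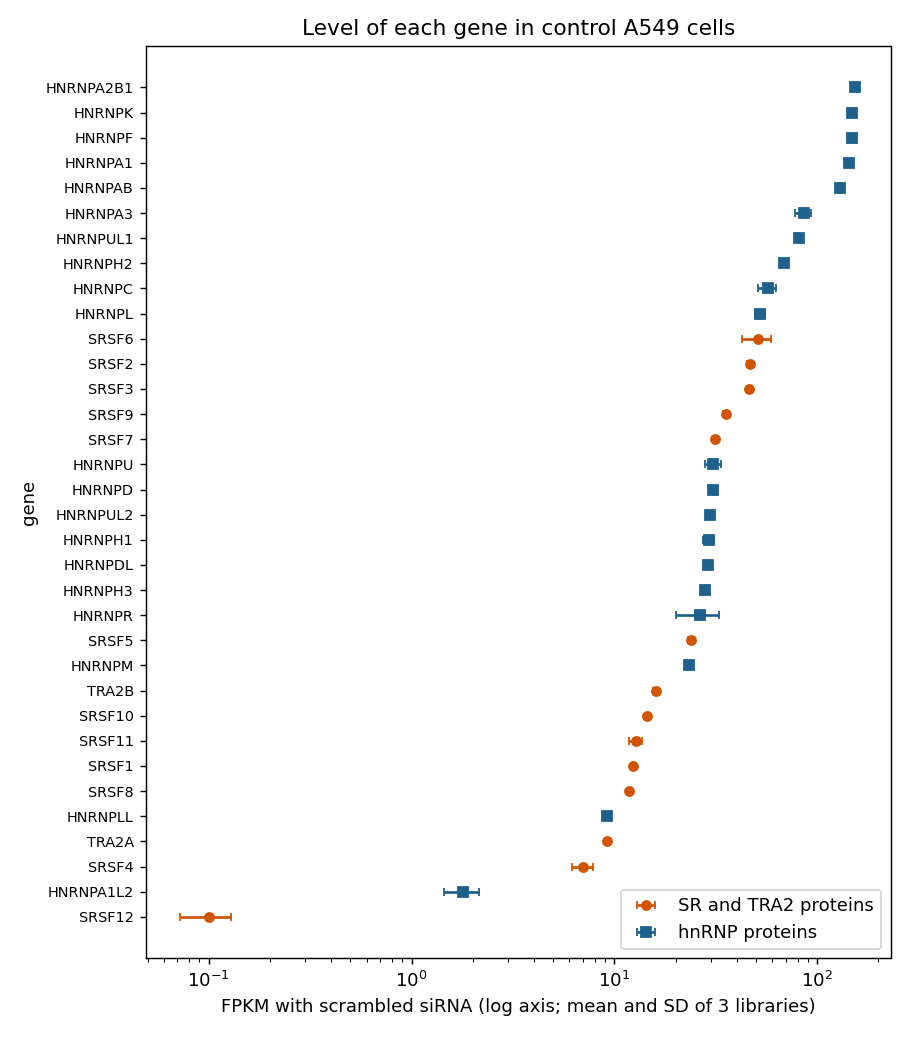
Level of each of the 34 genes in the 3 scrambled libraries, in FPKM on a log axis, with points at the mean and bars at the SD. Squares are hnRNPs and circles are SR and TRA2 genes; the 5 highest squares lie between 129 and 154 FPKM, and SRSF12 is alone at 0.1005 FPKM.

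With both siRNAs as one group, 6 of the 34 genes rose, 6 fell and 22 did not pass the test at an adjusted p under 0.05 over all 21048 genes tested (limma on log2(FPKM + 0.1)). The genes that rose were HNRNPM, HNRNPH3, HNRNPDL, HNRNPA1, HNRNPUL1 and SRSF8. The genes that fell were SRSF1, SRSF7, SRSF2, SRSF10, HNRNPF and HNRNPH2. Over all genes tested 17.0% rose and 11.5% fell, and among genes with a mean of at least 1 FPKM 25.2% rose and 16.9% fell, so the share of these 34 genes that moved (17.6% each way) was near the background. None passed the thresholds in the study's methods (a change of more than 3-fold at p under 0.01, unadjusted), which 2.29% of all genes did. The groups of 3 scrambled and 6 siCyclin K libraries did not overlap for 16 of the 34 genes (47.1%), against 32.6% of all genes tested and 47.8% of those with a mean of at least 1 FPKM, so the share was near that of genes at this level.

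Counts were then taken by family, without a test of the families against each other. Of the 14 SR and TRA2 genes 4 fell and 1 rose, with a median log2 fold change of -0.22, and 12 of the 14 had a negative sign. Of the 20 hnRNPs 5 rose and 2 fell, with a median of 0.09, and 12 had a positive sign. The median over all 34 genes was -0.10 and over all genes tested 0.06. The summed SR and TRA2 level was 248 ± 6.42 FPKM with siCyclin K#1 and 287 ± 8.63 FPKM with siCyclin K#2, both below the 306 FPKM of the lowest scrambled library. The summed hnRNP level was 1299 ± 14.2 FPKM with siCyclin K#1 and 1432 ± 28.3 FPKM with siCyclin K#2, so only the second stood above the control range of 1296 to 1319 FPKM. These sums were not rescaled, and the FPKM total over all features differed between the groups. It was 260555 to 262993 with scrambled, 249564 to 251584 with siCyclin K#1 and 246001 to 247212 with siCyclin K#2.

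The counts in each direction moved with the scaling of the libraries. After median-ratio rescaling 4 genes rose and 10 fell, the SR and TRA2 median was -0.30 with 6 lower and 0 higher, and the hnRNP median was 0.01 with 4 in each direction. After quantile normalization 6 rose and 8 fell, with medians of -0.27 for the SR and TRA2 genes and 0.14 for the hnRNPs. The negative SR and TRA2 median therefore held under both scalings, and the positive hnRNP median was near 0 in one of them. For siCyclin K#1 the median of all genes moved from 0.10 to 0.00 with median-ratio rescaling, and changes with this siRNA are read against that shift.

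HNRNPM, an hnRNP known for regulating splicing programs of epithelial and mesenchymal states, rose most (ENSG00000099783, chr19:8444767-8489114, plus strand, GRCh38). Its level was 23.4, 23.6 and 22.9 FPKM in the scrambled libraries. It was 48.5, 39.5 and 42.0 FPKM with siCyclin K#1 and 54.9, 49.9 and 50.1 FPKM with siCyclin K#2. All 6 knockdown libraries were above all controls, and the log2 fold change was 1.01 (SE 0.10, adjusted p = 6.89e-05), a 2.02-fold rise. A reference antisense gene, AC136469.2, overlaps exons of HNRNPM, and the strandedness of the libraries is not given in the sources used here.

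HNRNPH3, a smaller relative of the G-tract binding hnRNPs F and H (ENSG00000096746, chr10:68331174-68343191, plus strand), was at 28.5, 27.7 and 27.3 FPKM with scrambled siRNA. It reached 51.6, 52.9 and 53.0 FPKM with siCyclin K#1 and 49.4, 48.1 and 48.3 FPKM with siCyclin K#2. The groups were far apart compared with their spread, with a log2 fold change of 0.86 (SE 0.05, adjusted p = 5.04e-06) or 1.81-fold. Its exons overlap RUFY2 on the opposite strand, so reads of the pair cannot be told apart if the libraries were not stranded.

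HNRNPDL, the paralogue of hnRNP D whose transcripts include 4 annotated as NMD targets (ENSG00000152795, chr4:82422564-82430408, minus strand), measured 29.5, 29.05 and 28.6 FPKM in the control libraries. The siCyclin K#1 libraries gave 46.0, 43.9 and 44.4 FPKM, and the siCyclin K#2 libraries gave 55.3, 52.6 and 53.2 FPKM. Again no knockdown library came near the controls, and the log2 fold change was 0.75 (SE 0.09, adjusted p = 0.000171), or 1.69-fold.

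The 300 bases around the RefSeq start site of these 3 genes are shown because each holds an E-box, CACGTG, the core site of MYC and related factors, which is written in capitals (GRCh38.p14, from 250 bases before to 50 after the start, gene strand).
HNRNPM promoter, chr19:8444725-8445024, plus strand: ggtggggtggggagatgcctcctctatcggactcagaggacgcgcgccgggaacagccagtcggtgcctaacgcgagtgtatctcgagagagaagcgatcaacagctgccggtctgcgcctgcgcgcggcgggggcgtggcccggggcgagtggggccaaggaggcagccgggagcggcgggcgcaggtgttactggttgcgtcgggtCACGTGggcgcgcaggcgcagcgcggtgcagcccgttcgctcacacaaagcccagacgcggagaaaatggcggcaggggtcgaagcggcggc
HNRNPH3 promoter, chr10:68331443-68331742, plus strand: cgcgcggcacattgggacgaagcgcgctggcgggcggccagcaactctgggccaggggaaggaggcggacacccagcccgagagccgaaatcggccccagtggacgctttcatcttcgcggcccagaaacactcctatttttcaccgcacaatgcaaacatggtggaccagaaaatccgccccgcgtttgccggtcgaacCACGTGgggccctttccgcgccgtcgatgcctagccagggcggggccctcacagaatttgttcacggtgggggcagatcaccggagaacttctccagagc
HNRNPDL promoter, chr4:82430176-82430475, minus strand: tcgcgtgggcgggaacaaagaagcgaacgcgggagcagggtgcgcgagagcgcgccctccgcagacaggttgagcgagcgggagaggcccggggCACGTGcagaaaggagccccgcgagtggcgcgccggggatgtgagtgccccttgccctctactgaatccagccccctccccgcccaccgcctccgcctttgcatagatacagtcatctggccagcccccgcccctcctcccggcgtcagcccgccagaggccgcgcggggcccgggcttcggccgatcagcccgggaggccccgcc
The E-box started 42 bases before the RefSeq start site in HNRNPM, 50 before it in HNRNPH3 and 156 before it in HNRNPDL. In all 3 this start site lies downstream of the gene start given above. Each E-box is therefore inside the gene by those coordinates. A promoter sequence was matched for 31 of the 34 genes, and CACGTG, which reads the same on both strands, occurred in 7 of them (22.6%): the 3 above, HNRNPUL1, HNRNPA3, HNRNPD and HNRNPH2. It was in 4 of the 5 matched promoters of genes that rose and in 1 of the 5 matched promoters of genes that fell. The same letters occurred in 7.43% of all 27305 promoters, in 10.6% of those of genes with a mean of at least 1 FPKM, and in 11.1% and 11.3% of those genes that rose and fell. Other motifs searched on both strands in the 31 promoters were the ETS core CCGGAAG (5 genes, against 10.7% of all promoters), the SP1 core GGGCGG (21 genes, against 44.6%), CCAAT (14 genes, against 35.7%), TGACG (13 genes, against 25.01%), TATAAA (5 genes, against 11.95%), and the NRF1 and full CRE sites, TGACGTCA for the latter, which were in 0 of them (against 1.36% and 1.98%). In the 5 matched promoters that rose and the 5 that fell, the SP1 core was in 3 and 3 and CCAAT in 2 and 2. TGACG was in 1 and 2, the ETS core in 0 and 1, and TATAAA in 0 and 0. The E-box thus had the widest split of the motifs searched, and the split was not tested. These are matches of letters, and binding was not measured.

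Among the hnRNP A/B and D genes, which shuttle between nucleus and cytoplasm and often repress exons, 2 of 7 rose and 0 fell with both siRNAs together. HNRNPA1, the best studied repressor of this group, was at 145.4, 139.8 and 146.2 FPKM with scrambled siRNA. It rose to 193.3, 201.1 and 194.1 FPKM with siCyclin K#1 and to 190.4, 184.9 and 187.3 FPKM with siCyclin K#2. No values overlapped, and the log2 fold change was 0.42 (SE 0.05, adjusted p = 0.000142). HNRNPA1 has 39 pseudogenes in the files, which together stood at 38.0 FPKM in control libraries, and the 2 highest moved with it: HNRNPA1P10 had a log2 fold change of 0.48 and HNRNPA1P48 of 0.34. Reads shared between the gene and these copies cannot be told apart here. HNRNPA1L2, an expressed copy of HNRNPA1, had a log2 fold change of 0.36 (SE 0.12) and did not pass the test (adjusted p = 0.0576).

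HNRNPA2B1, a close relative of HNRNPA1 that also sorts RNAs into exosomes and reads m6A-marked transcripts, had a log2 fold change of only -0.08 (adjusted p = 0.578) over both siRNAs. Its levels were 154.1, 151.9 and 156.2 FPKM in control libraries, 128.8, 131.2 and 134.6 FPKM with siCyclin K#1, and 165.6, 160.2 and 160.0 FPKM with siCyclin K#2. The siCyclin K#1 libraries thus lay below the controls and the siCyclin K#2 libraries above them. HNRNPAB was at 131.2, 124.5 and 130.6 FPKM in control libraries, 115.5, 96.2 and 96.8 FPKM with siCyclin K#1, and 124.9, 124.9 and 127.9 FPKM with siCyclin K#2. Its siCyclin K#1 libraries were all below the others. HNRNPA3 and HNRNPD, the AU-rich element binding factor also called AUF1, had log2 fold changes of 0.05 and -0.09 that did not pass the test.

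The 4 genes of the F/H group, which bind runs of G near splice sites, did not move together. HNRNPH3 rose, as described. HNRNPF (ENSG00000169813, chr10:43385617-43409166, minus strand) fell from 149.3, 148.1 and 145.4 FPKM to 79.5, 80.8 and 82.3 FPKM with siCyclin K#1, and to 129.4, 124.6 and 123.6 FPKM with siCyclin K#2. All 6 knockdown libraries were below the controls, but the siCyclin K#1 libraries were far lower. Over both siRNAs the log2 fold change of -0.55 (SE 0.18, adjusted p = 0.0474) only just passed the test, and this call was lost under 10 of the 19 alternative settings. That SE also holds the difference between the siRNAs. Singly, the log2 fold change was -0.87 with siCyclin K#1 (adjusted p = 7.86e-08, limma) and -0.23 with siCyclin K#2 (adjusted p = 0.000272, limma). HNRNPH2 fell from a mean of 68.2 to 57.5 and 58.4 FPKM (log2 fold change -0.23, adjusted p = 0.0032), but its feature is shared with RPL36A and their read-through gene, so the value cannot be assigned to HNRNPH2 alone. HNRNPH1 was at -0.12 (adjusted p = 0.182).

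The remaining hnRNPs mostly stayed close to control. HNRNPUL1, related to the scaffold factor hnRNP U, rose by 0.19 on the log2 scale (adjusted p = 0.0376). This call was lost under 10 of 19 alternatives, and its exons overlap TGFB1 on the opposite strand. HNRNPK, a binder of C-rich RNA and DNA, was at 149.5, 144.8 and 150.3 FPKM with scrambled, 128.7, 133.5 and 137.4 FPKM with siCyclin K#1, and 144.7, 139.3 and 142.1 FPKM with siCyclin K#2. All knockdown libraries were below the controls, those of siCyclin K#2 only narrowly (highest 144.73 FPKM, against 144.82 FPKM in the lowest control). Over both siRNAs HNRNPK did not pass the test (log2 fold change -0.11, adjusted p = 0.149). HNRNPC, HNRNPL, HNRNPLL, HNRNPR, HNRNPU and HNRNPUL2 had log2 fold changes from -0.14 to 0.38, with none called. The largest of these, HNRNPR at 0.38, varied so much within groups (SD 6.36 to 7.61 FPKM) that its SE was 0.18.

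Among the SR proteins the largest falls were in SRSF1, SRSF7 and SRSF2; the values of these 3 in every library, and those of the TRA2 genes, are given after their fold changes were seen. SRSF1, the prototype SR protein and an oncogene in several cancers (ENSG00000136450, chr17:58003360-58007346, minus strand), was at 12.2, 12.6 and 12.3 FPKM with scrambled siRNA. It was 7.52, 8.24 and 7.21 FPKM with siCyclin K#1 and 9.70, 8.96 and 7.998 FPKM with siCyclin K#2. No library of either knockdown reached the controls, and the log2 fold change was -0.58 (SE 0.10, adjusted p = 0.00152). Exons of SRSF1 overlap AC015813.5 on the opposite strand and AC015813.2 on the same strand.

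SRSF7, a zinc-knuckle SR protein that also couples splicing to RNA export and has 6 annotated NMD transcripts of 12 (ENSG00000115875, chr2:38743599-38751494, minus strand), was at 31.2, 31.1 and 31.98 FPKM in control libraries. The siCyclin K#1 libraries gave 19.8, 21.0 and 20.6 FPKM and the siCyclin K#2 libraries 24.2, 24.6 and 23.9 FPKM. The 3 groups were each separate from the others, with a log2 fold change over both siRNAs of -0.50 (SE 0.08, adjusted p = 0.00158). SRSF2, known for binding both C-rich and G-rich exonic enhancers, went from 46.1, 44.9 and 47.9 FPKM to 35.1, 30.0 and 31.97 FPKM with siCyclin K#1 and 43.3, 37.4 and 38.8 FPKM with siCyclin K#2. Its log2 fold change of -0.37 (SE 0.11, adjusted p = 0.028) lost its call under 5 of 19 alternatives, and its exons overlap MFSD11 on the opposite strand.

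SRSF10, a splicing repressor when dephosphorylated under heat shock, fell by 0.25 on the log2 scale (adjusted p = 0.0138), from 14.4 ± 0.157 to 11.6 ± 0.232 and 12.6 ± 0.560 FPKM (SD, n = 3 each). This call was lost without scrambled replicate 1 (adjusted p = 0.0604) and without scrambled replicate 2 (adjusted p = 0.0540). SRSF8, a copy of SRSF2, went the other way, by 0.21 (adjusted p = 0.0184), although it lost its call under 7 of 19 alternatives, both rescalings among them. Reads shared between SRSF8 and SRSF2 cannot be told apart here. The other SR genes had log2 fold changes from -0.36 for SRSF6 to 0.08 for SRSF4 with none called. SRSF3, SRSF5 and SRSF9 lay at -0.04, -0.21 and -0.29, and SRSF11 and SRSF12 at -0.16 and -0.21.

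**Figure D2:**
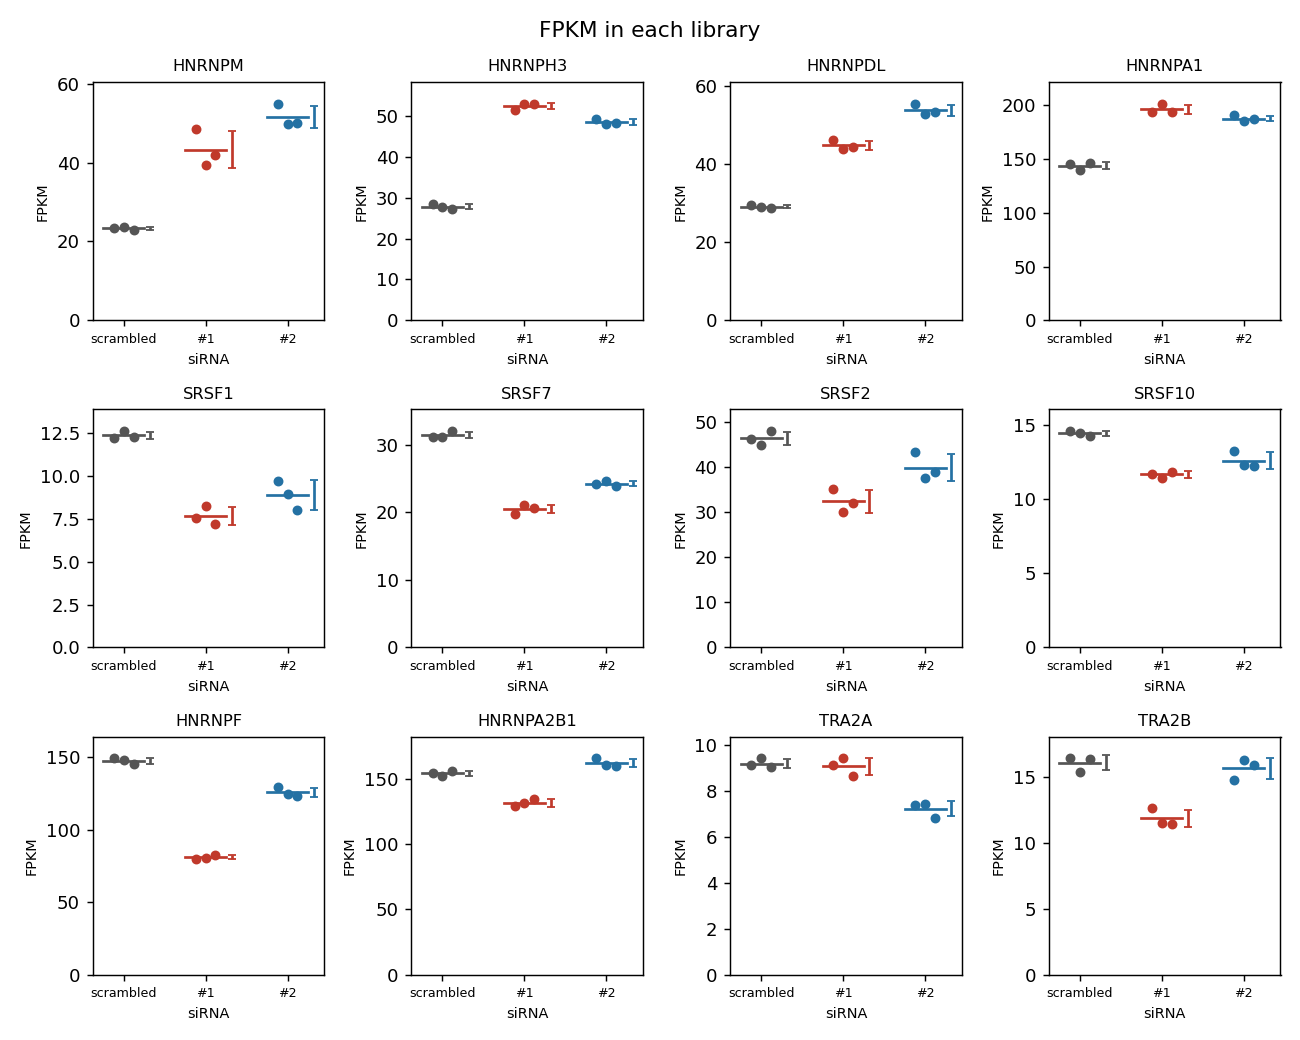
FPKM in each library for 12 genes, on linear axes that start at 0, with points for libraries, lines for group means and bars for the SD. HNRNPM, HNRNPH3, HNRNPDL and HNRNPA1 are above the controls with both siRNAs, SRSF1, SRSF7, SRSF2 and SRSF10 are below them, and the siCyclin K#1 libraries of HNRNPA2B1 and TRA2B and the siCyclin K#2 libraries of TRA2A are below all controls of their gene.

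Singly, the siRNAs moved more of these genes. These contrasts share the scrambled libraries. With siCyclin K#1, 8 of the 34 rose, against 26.8% of all genes tested and 36.5% of those with a mean of at least 1 FPKM, and 15 fell, against 18.1% and 27.8%. The median of the 34 genes was -0.07 and that of all genes 0.10. The 14 SR and TRA2 genes had 9 lower and 1 higher, with a median of -0.31, whereas the 20 hnRNPs had 6 lower and 7 higher, with a median of 0.06. After median-ratio rescaling the SR and TRA2 genes had 10 lower and 1 higher with a median of -0.43, and the hnRNPs had 8 lower and 5 higher with a median of -0.06, so the sign of the hnRNP median turned. No gene passed a fold change of 3 with p under 0.01, which 4.67% of all genes did.

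With siCyclin K#2, 6 of the 34 rose, against 19.8% of all genes and 31.1% of those with a mean of at least 1 FPKM, and 9 fell, against 15.2% and 22.4%. The SR and TRA2 genes had 5 lower and 1 higher, with a median of -0.17, and the hnRNPs 4 lower and 5 higher, with a median of 0.11. Again none passed the fold change of 3, against 1.94% of all genes. The same 12 genes called with both siRNAs together were called in the same direction with each siRNA singly, 6 higher and 6 lower. A further 11 passed with siCyclin K#1 only, 3 with siCyclin K#2 only (HNRNPH1, HNRNPLL and TRA2A, all lower), 8 with neither, and 0 were called in opposite directions. Of all genes with a mean of at least 1 FPKM, 40.5% were called in the same direction with each siRNA, 20.6% with siCyclin K#1 only, 9.80% with siCyclin K#2 only, 25.9% with neither and 3.24% in opposite directions. The 12 genes (35.3%) are thus no larger a share than that background.

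**Figure D3:**
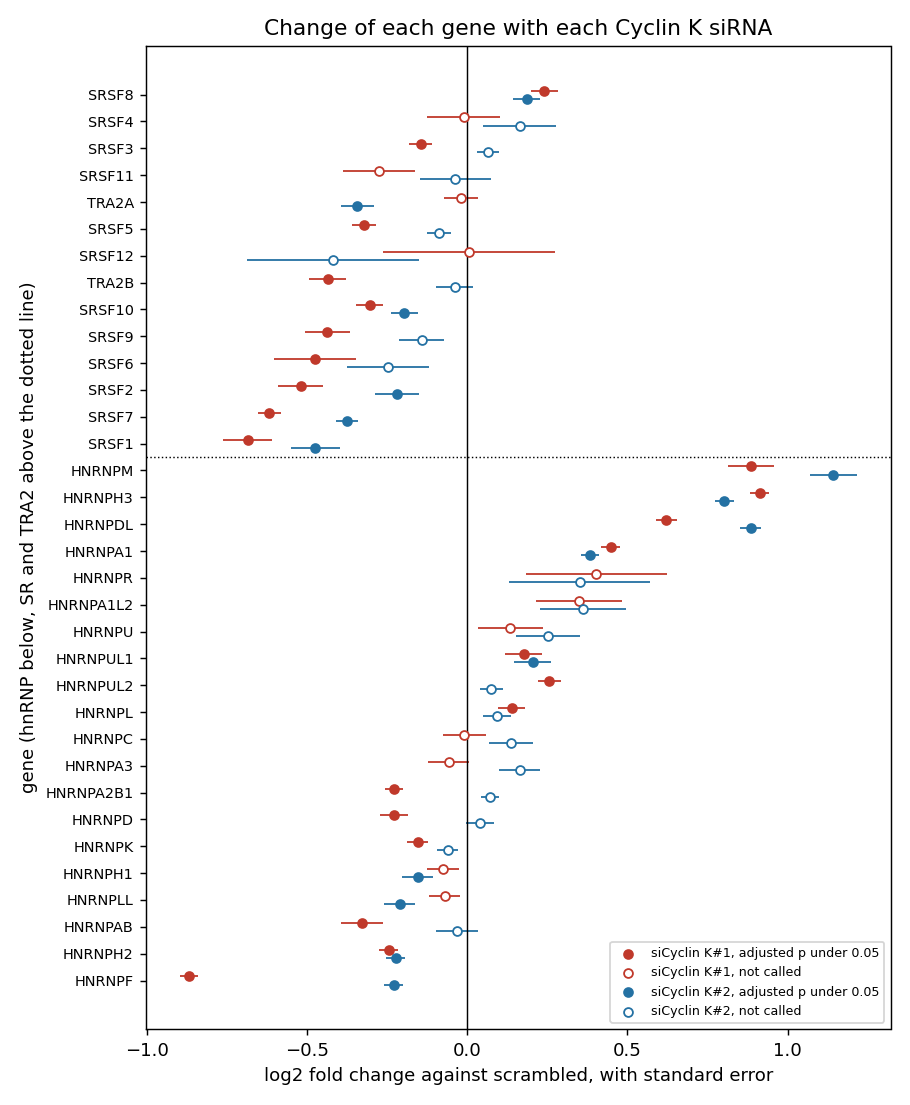
Log2 fold change against scrambled for each gene with siCyclin K#1 (red) and siCyclin K#2 (blue), with SE bars; filled points passed an adjusted p under 0.05, and SR and TRA2 genes lie above the dotted line. With siCyclin K#1 9 of the 14 upper genes are called lower, and HNRNPM with siCyclin K#2 is farthest to the right at 1.14.

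The direct comparison of the siRNAs asks which genes responded to one more than to the other, and it does not use the scrambled libraries except in the shared estimate of the spread. With siCyclin K#1, 13 of the 34 genes were lower than with siCyclin K#2, or 38.2%, against 12.3% of all genes tested and 20.8% of those with a mean of at least 1 FPKM. Only 3 were higher (HNRNPH3, HNRNPUL2 and TRA2A), or 8.82%, against 17.1% and 23.7%. The median difference was -0.16 over the 34 genes, -0.22 over the SR and TRA2 genes and -0.06 over the hnRNPs, with 0.08 over all genes tested. After median-ratio rescaling 17 genes were lower and 2 higher, and after quantile normalization 10 were lower and 5 higher. After these rescalings, in the same order, the SR and TRA2 median was -0.29 and -0.20, and the hnRNP median -0.13 and -0.01. None of the differences reached a fold of 3, which 1.53% of all genes did.

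The largest difference was that of HNRNPF, at -0.64 (SE 0.03, adjusted p = 1.46e-06), or 0.643 of the siCyclin K#2 level. HNRNPA2B1, HNRNPAB, HNRNPD and HNRNPA3 were also lower with siCyclin K#1, with log2 differences of -0.30, -0.30, -0.27 and -0.22 and adjusted p from 7.51e-05 to 0.0304. Together with HNRNPDL at -0.26 these are 5 of the 7 genes of the A/B and D group. SRSF2, SRSF9, SRSF7, SRSF5 and SRSF3 had differences of -0.30, -0.29, -0.24, -0.23 and -0.21.

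The 2 TRA2 proteins, paralogous activators that bind GAA-rich enhancers and were named for the fly sex determination factor Transformer 2, split between the siRNAs. TRA2A was at 9.11, 9.42 and 9.03 FPKM in control libraries, at 9.13, 9.42 and 8.66 FPKM with siCyclin K#1 and at 7.40, 7.45 and 6.84 FPKM with siCyclin K#2. TRA2B was at 16.4, 15.4 and 16.4 FPKM in control libraries, at 12.6, 11.6 and 11.4 FPKM with siCyclin K#1 and at 14.8, 16.3 and 15.9 FPKM with siCyclin K#2. Thus TRA2A was low in the siCyclin K#2 libraries and TRA2B in the siCyclin K#1 libraries. The direct difference was 0.32 for TRA2A (SE 0.05, adjusted p = 0.00181) and -0.40 for TRA2B (SE 0.06, adjusted p = 0.0009).

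**Figure D4:**
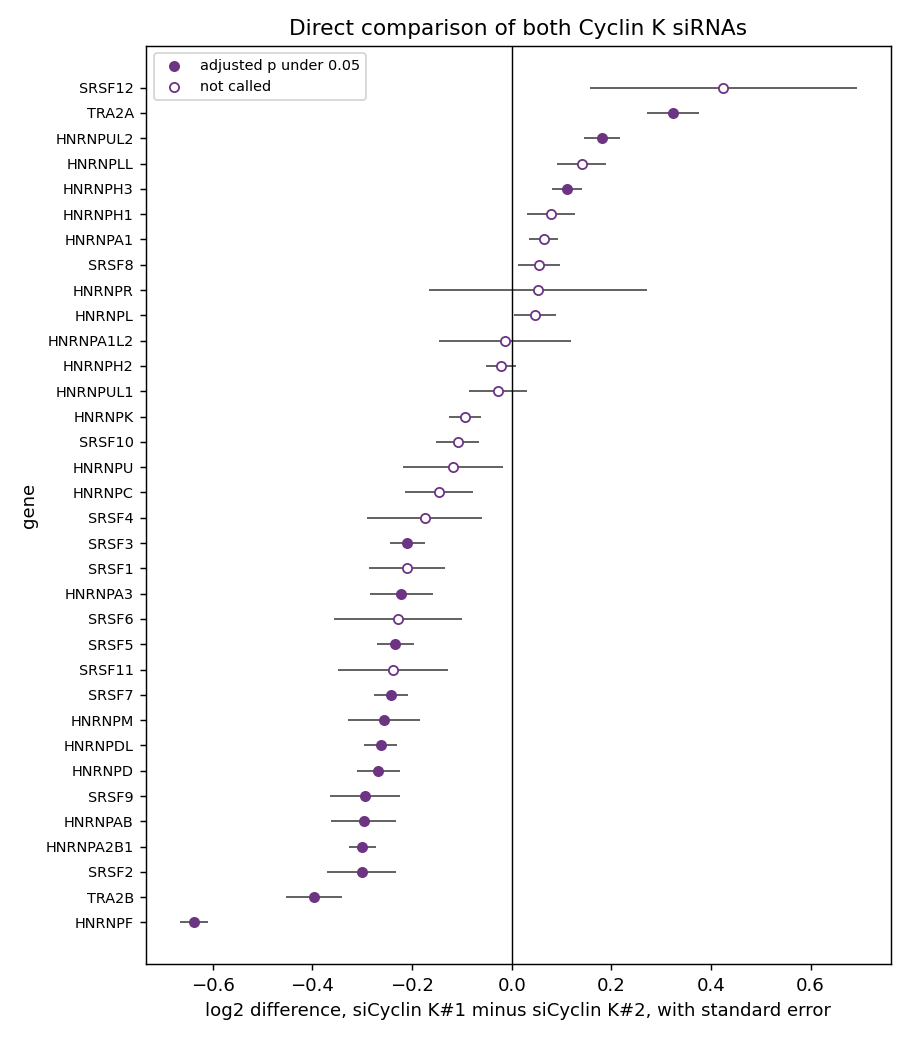
Log2 difference between siCyclin K#1 and siCyclin K#2 for each gene, sorted, with SE bars and filled points at an adjusted p under 0.05. HNRNPF lies farthest to the left at -0.64 and TRA2B next at -0.40, while TRA2A at 0.32 has the largest called positive difference.

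An siRNA can lower other transcripts through its seed, bases 2 to 8 of the guide strand, in the manner of a microRNA, so the longest annotated 3′ UTR of each gene was searched for the complement of each seed. The sites shown are those found, with the matching bases in capitals (GENCODE 29, transcript strand). For siCyclin K#1 the complement is GTGATAA, and 3 of 34 genes held it, against 10.6% of 11406 genes with a 3′ UTR.
HNRNPF site: tctagcatGTGATAAtgagtaaa
HNRNPD site: gagtctaaGTGATAActatagga
SRSF11 site: tcactgtaGTGATAAttgccatc
HNRNPF, the gene with the largest difference between the siRNAs, is 1 of the 3, with the site at base 176 of 1020 in its 3′ UTR. The median log2 fold change with siCyclin K#1 was -0.28 over the 3 genes with a site and -0.06 over the other 31. For siCyclin K#2 the complement is TACAGGT, and 4 of 34 genes held it, against 13.2% of all.
HNRNPA1 site: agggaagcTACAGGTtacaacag
HNRNPA1L2 site: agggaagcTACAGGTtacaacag
SRSF2 site: aagaaagtTACAGGTattgcact
TRA2B site: gatgttgcTACAGGTgggttatt
The site and its flanks are identical in HNRNPA1 and its copy HNRNPA1L2. The medians with siCyclin K#2 were 0.16 with a site and 0.00 without, and whether any of these sites is used was not tested.

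Annotation features of the 34 genes were compared with those of other genes, as a description. An NMD transcript is annotated for 27 of the 34 (79.4%), against 41.1% of 11475 tested protein-coding genes, and a retained-intron transcript for 25 of the 34 (73.5%), against 55.8%. Gene-level FPKM does not separate these transcripts from coding ones, so whether a change lay in productive or NMD transcripts cannot be told apart. Across the 34 genes, which share libraries, gene length and the log2 fold change for both siRNAs gave a Spearman rho of 0.15. The control level and the difference between the siRNAs had a rho of -0.35 and a Pearson r of -0.51 on log10 levels. SRSF12 had by far the lowest level, 0.1005 FPKM, and the largest positive difference, 0.42, which was not called (adjusted p = 0.289, limma). The correlation without SRSF12 was not tested. Exons of 17 of the genes overlap another gene, on the opposite strand for 12 of them. Beside those named above, the opposite-strand genes were CBX3 for HNRNPA2B1, PHYKPL for HNRNPAB, COX20 for HNRNPU and GATC for SRSF9. For HNRNPA3, HNRNPD and HNRNPK they were AC079305.3, AC124016.1 and AL354733.3.

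Kinases that phosphorylate the arginine and serine rich domain and so set the activity of SR proteins were counted beside them. The counts in this and the following lists are to be read against the 17.0% of all genes tested that rose and the 11.5% that fell with both siRNAs, or 25.2% and 16.9% at a mean of at least 1 FPKM. Of 10 tested, 3 rose and 1 fell with both siRNAs together, with a median of 0.02. SRPK2, a cytoplasmic kinase that promotes nuclear import of SR proteins, rose by 0.49 on the log2 scale, CLK2, a nuclear kinase that releases them from speckles, fell by 0.56, and DYRK1B rose by 1.03 (adjusted p = 0.0460). DYRK1B was at 3.93 FPKM with scrambled, 12.3 FPKM with siCyclin K#1 and 5.34 FPKM with siCyclin K#2, and the siRNAs differed (adjusted p = 1.39e-05).

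Of 25 SR-related proteins 3 rose and 8 fell, with a median of -0.01. The largest falls were U2AF2, the large subunit of the factor that binds the polypyrimidine tract, at -0.83 (102.8 to 54.9 and 60.7 FPKM), PPIG at -0.73 and PNN at -0.68, and the largest rises LUC7L2 at 0.64, RBM23 at 0.41 and BUD13 at 0.31. Of 18 hnRNP-like proteins without the prefix 5 rose and 5 fell. TAF15 rose by 0.95 on the log2 scale, RALY, an hnRNP C relative, by 0.55 and CIRBP by 0.41, and PTBP2 and TIAL1 fell by 0.48 and 0.30. Singly, RBM23 did not pass with siCyclin K#2 (adjusted p = 0.102, limma), nor CIRBP with siCyclin K#1 (adjusted p = 0.0861, limma).

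Of 23 other regulators of alternative splicing 8 rose and 4 fell, with RBFOX3 at 1.93, NOVA2 at 1.13 and NOVA1 at 1.01, all from under 1 FPKM in control cells, and the feature shared by RBM4 and RBM14 at -0.92, PSPC1 at -0.80 and SAFB at -0.60. The siRNAs differed for NOVA1, NOVA2, SAFB and the RBM4 feature (adjusted p from 2.46e-05 to 0.0447, direct limma test). NOVA1 was at 1.40 with siCyclin K#1 and 0.61 with siCyclin K#2, and SAFB at -0.34 and -0.85. Of 42 core spliceosome genes 10 rose and 9 fell, with a median of -0.05. SF3B2, a subunit of the U2 particle, rose by 1.33 (11.3 to 28.2 and 28.7 FPKM), SART1 by 1.29 and DDX23 by 0.73, and DHX15, SF1 and SNRNP40 fell by 0.82, 0.53 and 0.42. Of 17 NMD factors 2 rose and 6 fell, with a median of -0.19. CASC3, a component of the exon junction complex, rose by 0.94 and UPF2 by 0.52, and NCBP2 and UPF3B fell by 0.81 and 0.60 on the log2 scale. Singly, NCBP2 did not pass with siCyclin K#1 (adjusted p = 0.0653, limma), nor UPF3B with siCyclin K#2 (adjusted p = 0.0672, limma).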

How the data were processed

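Total RNA of 9 A549 libraries was sequenced as paired reads on an Illumina HiSeq system. The authors deposited FPKM per gene for each library, made with StringTie 1.3.3b per the labels; aligner and strandedness are not given in the sources used here. Rows of the same gene were summed and StringTie loci without a reference gene were left out. Genes with at least 0.1 FPKM in at least 3 libraries entered limma 3.58.1 (R 4.3.3; lmFit, eBayes with trend) as log2(FPKM + 0.1), both siRNAs as 1 group, or 3 groups sharing a spread. A gene was called at a Benjamini-Hochberg adjusted p under 0.05 over all 21048 genes. Fold changes on this scale understate changes of low genes. P-values measure the spread between samples of 1 cell line, which may be technical. With both siRNAs as 1 group, this spread also holds any difference between the siRNAs. Values are FPKM, so depth enters only through recovered reads (96.7% to 97.4% of low values whole within 0.02 reads), and these were not tested as counts.

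Values in every library were given for CCNK, genes called over both siRNAs with an absolute log2 fold change of at least 0.58, the 5 highest control levels, and genes called between the siRNAs with a difference of at least 0.58; from other lists at most 3 higher and 3 lower called genes with a mean of at least 1 FPKM, a few of which are not reported here. The genes and lists were chosen with earlier results of these data known. The fit was tested on simulated data. Alternatives were pseudocounts, filters, scalings, thresholds, row handling, a replicate block and leaving out each library. Annotation was GENCODE 29 (GRCh38) and promoters were from RefSeq (GRCh38.p14).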

Additional observations from a re-analysis of the deposited data

Results flagged for a closer look

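A pair of the 34 genes had 1 library far from the other 5 siCyclin K libraries. SRSF11 stood at 15.1 FPKM in siCyclin K#2 replicate 1, and the gap to its neighbour was 0.725 of the whole range. Without that library SRSF11 passed the test over both siRNAs (log2 fold change -0.24, adjusted p = 0.0396). SRSF12 was at 0.0138 FPKM in siCyclin K#2 replicate 3, with a gap of 0.642 of the range. Chance gives about 1.7 such genes among 34.

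The response differed between the siRNAs, by the direct limma test, for 16 genes. As siCyclin K#1 minus siCyclin K#2 on the log2 scale, the differences were -0.64 for HNRNPF, -0.40 for TRA2B, -0.30 for SRSF2, HNRNPA2B1 and HNRNPAB, -0.29 for SRSF9, -0.27 for HNRNPD, -0.26 for HNRNPDL and HNRNPM, -0.24 for SRSF7, -0.23 for SRSF5, -0.22 for HNRNPA3 and -0.21 for SRSF3. TRA2A, HNRNPUL2 and HNRNPH3 differed the other way, by 0.32, 0.18 and 0.11. HNRNPUL2 shares its feature with BSCL2.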

How the results depend on the processing

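Over both siRNAs, none of the 34 genes changed direction with a call under any alternative run. The contrasts of the single siRNAs and the direct comparison were not checked gene by gene for this. At an adjusted p under 0.01, 7 of the 34 genes were called over both siRNAs, in place of 12. At a fold change over 3 with an unadjusted p under 0.01, 0 were called in each of the 4 comparisons and 0 in the same direction with each siRNA, since the largest change was 2.21-fold. The median log2 fold change of the 34 genes over both siRNAs moved from -0.10 to -0.19 with median-ratio rescaling and to -0.0347 with quantile normalization. Leaving out 1 library at a time gave 8 to 13 called genes over both siRNAs, 20 to 24 for siCyclin K#1 alone, 12 to 15 for siCyclin K#2 alone, 14 to 17 between the siRNAs and 10 to 12 in the same direction with each, and a median of -0.12 to -0.05. Without scrambled replicate 1 the genes lower over both siRNAs went from 6 to 3. HNRNPM, HNRNPH3, HNRNPDL, HNRNPA1, HNRNPH2, SRSF1 and SRSF7 kept their calls over both siRNAs in every other filter, scaling and left-out library. Replicate numbers did not pair the libraries (correlations of deviations from -0.0711 to 0.0379 over 11243 genes), and a replicate block gave 8 called genes over both siRNAs, 24 for siCyclin K#1 alone, 16 for siCyclin K#2 alone, 16 between them and 13 in the same direction. Precision is limited by 3 libraries a group. In simulated data with both siRNAs as 1 group, 36 of 100 genes changed 1.5-fold were recovered. Those genes were drawn from all genes tested, low ones included, so the share does not give the recovery for the 34 genes. FPKM cannot show shifts between transcripts of a gene.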
